A study of Homo sapiens with 15 samples.

Results

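Transcript levels of 3 genes, SPP1, CD44 and ODAM, were followed across 15 RNA-seq libraries of HepG2, an established human liver cancer cell line. They were taken by symbol from the 35012 genes of the deposited count table, with their response in these libraries already known, so their own levels and changes are given as a description with no test. SPP1 and ODAM passed the filter on low counts (14621 genes did) and CD44 did not. All cells had received a lentiviral short hairpin RNA and puromycin selection, and were harvested 5 days after transduction. The 4 NS libraries came from cells with a non-silencing control hairpin. The others targeted BRG1 (4 libraries), BRM (3 libraries) or both at once (double, 4 libraries). BRG1, encoded by SMARCA4, and BRM, encoded by SMARCA2, are the alternative motor subunits of SWI/SNF chromatin remodelling complexes. The labels give 1 hairpin name per target and do not say whether replicates were separate cultures, so the p-values below measure only the spread between these libraries.

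SPP1 encodes osteopontin, a secreted acidic phosphoprotein that binds integrins through an arginine-glycine-aspartate motif and that has also been reported to bind CD44. In liver it is made by biliary cells, macrophages and many hepatocellular carcinomas. CD44 is a transmembrane receptor whose main ligand is hyaluronan, a matrix polysaccharide, and whose tail is tied to actin by ezrin, radixin and moesin. ODAM encodes a secreted protein of enamel-forming cells and of the epithelium that attaches gum to tooth, and it belongs with osteopontin to the secretory calcium-binding phosphoprotein family.

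In GENCODE v29 on GRCh38, SPP1 (ENSG00000118785) lies on the plus strand of chromosome 4 at 87975650 to 87983426. ODAM (ENSG00000109205) lies on the plus strand of the same chromosome at 70196496 to 70204576, and the 2 start sites are 17.8 Mb apart. CD44 (ENSG00000026508) lies on the plus strand of chromosome 11 at 35138870 to 35232402. All 3 are protein-coding. CD44 overlaps an antisense gene, CD44-AS1, and since the strand setting of the counting is not given in the sources used here, reads of the overlapping parts cannot be assigned to one strand.

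The sequences before the starts of SPP1 and ODAM are shown because both transcripts were low in the same libraries. They are the plus strand in RefSeq's GRCh38.p14 table, chr4:87975464-87975649 for SPP1 (186 bases, ending before the first annotated exon) and chr4:70195475-70195724 for ODAM (250 bases). Capitals mark matches to the motifs searched.
SPP1: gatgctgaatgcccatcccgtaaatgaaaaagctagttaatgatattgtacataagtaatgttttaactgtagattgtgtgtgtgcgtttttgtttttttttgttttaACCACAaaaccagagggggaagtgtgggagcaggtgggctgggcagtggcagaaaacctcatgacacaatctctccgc
ODAM: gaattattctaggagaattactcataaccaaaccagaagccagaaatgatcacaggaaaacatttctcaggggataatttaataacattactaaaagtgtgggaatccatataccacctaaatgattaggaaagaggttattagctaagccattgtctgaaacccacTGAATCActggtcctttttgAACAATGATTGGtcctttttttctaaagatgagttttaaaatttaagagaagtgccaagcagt

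Both strands of the 250 bases before the RefSeq start were searched for 6 motifs. The letters searched were TGANTCA for the AP-1 family and TGTGGT for the RUNX family. For the TCF/LEF family they were CTTTGNT, and for the SOX family AACAATG. The TATA box was searched as TATAAA and the CCAAT box by the letters of its name. The SPP1 window held 1 match, RUNX on the minus strand at -142 to -137 from the RefSeq start. The ODAM window held 3 that did not overlap, AP-1 at -83 to -77, SOX at -63 to -57 and CCAAT box on the minus strand at -56 to -52. Of 35116 promoter windows of this length, 11% held the RUNX letters, 6.57% AP-1, 2.87% SOX and 32% CCAAT. SPP1 and ODAM shared no match in these windows, and a match is a description of letters, not a site or a cause. The RefSeq start of ODAM lies 771 bases upstream of the GENCODE v29 start.

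Total counts ran from 11500149 to 27187991 per library. The labels do not say what replicate numbers share, but 2 sets could be seen in every group, replicates 1 and 2 against replicates 3 and 4: transcripts of mitochondrial DNA took 4.97 to 8.33% of counts in the 8 lower-numbered libraries and 1.33 to 3.55% in the 7 higher-numbered ones. Values within these sets are given beside the pooled ones, and the higher-numbered set holds 1 BRM library. Levels are in the counts-per-million unit (CPM) scaled by TMM, a factor that evens out library composition. SMARCA4 averaged 307 ± 6.99 CPM (SD, n = 4) with the NS hairpin, 27.8 ± 2.32 with the BRG1 hairpin and 46.2 ± 6.09 in the double group. SMARCA2 averaged 39.2 ± 4.05 CPM (SD, n = 4) with the NS hairpin, 4.38 ± 2.22 (n = 3) with the BRM hairpin and 2.57 ± 0.299 (n = 4) in the double group. In the BRG1 group SMARCA2 averaged 25.8 ± 3.64 CPM (SD, n = 4), 65.7% of NS, with its highest library (29.5 CPM) below the lowest of NS (33.2 CPM). That difference passed with the replicate block (-0.60 ± 0.19, edgeR adjusted p = 0.0261) and not without it (-0.61 ± 0.23, adjusted p = 0.0712).

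SPP1 was an abundant transcript in control cells and was reduced to between 6.34 and 12.4% of the NS mean by either hairpin or both. The level in NS libraries 1 to 4 was 792, 682, 537 and 612 CPM. In the BRG1 libraries it was 63.4, 56.5, 102.6 and 101.5 CPM. The 3 BRM libraries held 26.7, 35.8 and 82.6 CPM, and double libraries 1 to 4 held 23.1, 25.3, 79.9 and 37.9 CPM. Every knockdown library lay below every NS library, whereas the 3 knockdown groups overlapped each other. The order of the means was NS (656 ± 109 CPM, SD, n = 4), BRG1 (81.0 ± 24.5, n = 4), BRM (48.4 ± 30.0, n = 3) and double (41.6 ± 26.4, n = 4), with a gap beyond the spread only between NS and the rest.

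**Figure D1:**
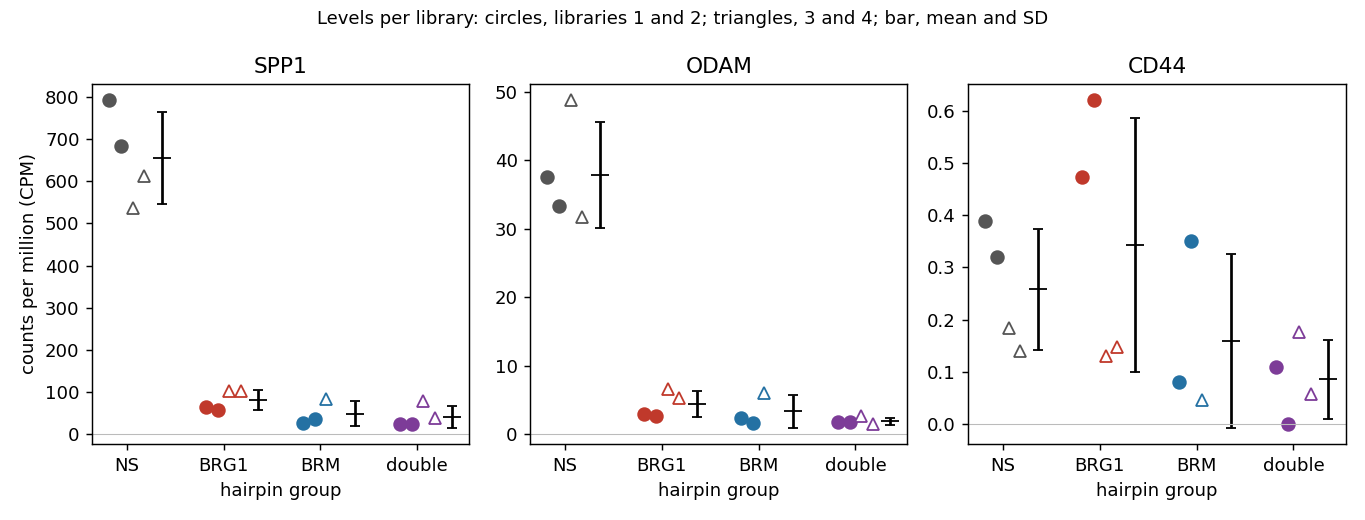
Levels of SPP1, ODAM and CD44 in CPM (vertical axes, linear and scaled separately) in each of 15 libraries by hairpin group; circles are libraries 1 and 2, triangles libraries 3 and 4, and the bars mean and SD. SPP1 in NS libraries lies at 537 to 792 CPM and in all knockdown libraries at or below 103 CPM, ODAM at 31.7 to 48.8 against at most 6.61 CPM, and CD44 stays under 0.7 CPM throughout.

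On the log2 scale SPP1 differed from NS by -3.02 ± 0.44 (edgeR estimate ± SE) in BRG1 libraries, by -3.76 ± 0.51 in BRM libraries and by -3.98 ± 0.45 in double libraries. These were the 63rd, 35th and 57th most negative changes of the 14621 genes tested. Groups that did not overlap, with the knockdown lower, were seen for 13.1, 10.8 and 12.8% of genes tested in the same comparisons, and nothing is read from that for genes chosen on these contrasts. In libraries 1 and 2 the differences were -3.62 ± 0.29, -4.56 ± 0.30 and -4.93 ± 0.31, and in libraries 3 and 4 they were smaller, -2.49 ± 0.27, -2.80 ± 0.37 and -3.28 ± 0.28. SPP1 in the BRM group kept 4.24% of the NS mean in libraries 1 and 2 and 14.4% in library 3. Without BRM library 3 the BRM difference was -4.42. SMARCA2 in the 3 BRM libraries was 6.85, 2.55 and 3.73 CPM, so the library with the most SMARCA2 was the one with the least SPP1. The authors' deposited tables give SPP1 log2 changes of -3.04 ± 0.42, -3.78 ± 0.45 and -4.00 ± 0.42 (SE).

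ODAM followed the same order at a lower level. NS libraries 1 to 4 held 37.6, 33.3, 48.8 and 31.7 CPM. The BRG1 libraries held 2.88, 2.637, 6.61 and 5.31 CPM, the BRM libraries 2.34, 1.55 and 6.04 CPM, and the double libraries 1.69, 1.75, 2.599 and 1.49 CPM. All knockdown libraries were again below all NS libraries, and the double libraries were also below every BRG1 library, though by little at the closest pair, 2.599 against 2.637 CPM. Group means were 37.9 ± 7.70 CPM (SD, n = 4) for NS, 4.36 ± 1.93 (n = 4) for BRG1, 3.31 ± 2.40 (n = 3) for BRM and 1.88 ± 0.490 (n = 4) for double, or 11.5, 8.74 and 4.98% of NS. BRG1 and BRM, and BRM and double, overlapped. Depth was thin at the low end, with 26 to 74 ODAM counts in each double library against 416 to 774 in each NS library.

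The log2 difference of ODAM from NS was -3.12 ± 0.40 (SE) in BRG1, -3.50 ± 0.46 in BRM and -4.31 ± 0.43 in double, ranks 56, 44 and 41 from the most negative. Within libraries 1 and 2 the BRG1 and BRM differences were -3.68 ± 0.28 and -4.22 ± 0.30. Within libraries 3 and 4 they were -2.75 ± 0.27 and -2.73 ± 0.35, and the double difference was -4.36 ± 0.31 in the lower and -4.25 ± 0.29 in the higher set. In the BRM group ODAM kept 5.48% of the NS mean in libraries 1 and 2 and 15% in library 3, close to SPP1 in the same libraries. Without BRM library 3 the BRM difference was -4.34.

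The double group lay close to the single hairpins. Groups not overlapping with double lower made up 11% of genes tested against BRG1 and 14.3% against BRM. Against BRG1 alone, the double group differed by -0.96 ± 0.41 (SE) for SPP1 and -1.19 ± 0.40 for ODAM on the log2 scale. Against BRM alone the differences were -0.22 ± 0.44 for SPP1 and -0.81 ± 0.43 for ODAM. The SPP1 value against BRM changed sign to 0.42 without BRM library 3, and that of ODAM then stood at -0.0034. For SPP1 the sum of the single changes was -6.78, and the double change was -3.98, a departure from additivity on the log2 scale of 2.80 ± 0.61. For ODAM the sum was -6.61, the double change -4.31 and the departure 2.30 ± 0.58 (1.23 ± 0.43 within libraries 3 and 4). Over all genes, that interaction term passed with a positive sign for 0.103% and a negative one for 0.397%. All 3 comparisons with NS share the NS libraries, so these departures rest on the same control values.

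**Figure D2:**
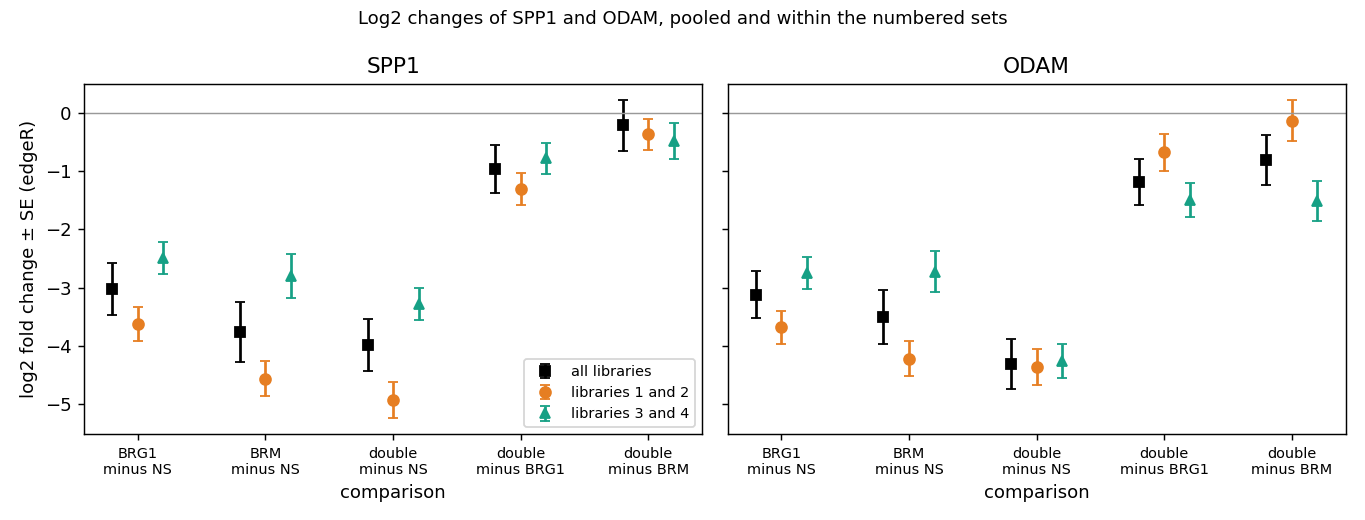
Log2 fold changes (vertical axis, estimate ± SE from edgeR) of SPP1 and ODAM in 5 comparisons (horizontal axis), from all libraries (black squares), libraries 1 and 2 (orange circles) and libraries 3 and 4 (green triangles). Changes against NS lie between -4.93 and -2.49 for SPP1, and those of double against either single hairpin lie nearer to 0.

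SPP1 and ODAM were each other's nearest gene. Over 15 libraries the Pearson r of their log2 CPM was 0.972 (0.985 in the 8 lower-numbered and 0.971 in the 7 higher-numbered libraries), the highest for either gene among 11903 genes averaging 2 CPM or more. These libraries share 4 groups, and both genes were chosen for their response, so r is a description. Next for SPP1 came PLA2G2A, a secreted phospholipase A2 (r = 0.941), the homeobox gene MEIS2 (0.938), the sialophorin gene SPN (0.926) and ZBED6CL (0.924). Next for ODAM came RELN, which encodes the secreted glycoprotein reelin (0.945), SPN (0.943), CTSC, the lysosomal protease cathepsin C (0.936), and TTYH1 (0.934).

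PLA2G2A averaged 29.6 CPM with the NS hairpin, 3.56 with BRG1, 0.46 with BRM and 0.538 with both. RELN, more abundant in NS than SPP1 by CPM, averaged 810 CPM in NS, 130 in BRG1, 141 in BRM and 38.9 in double. MEIS2 had a like order with a far smaller range, 15.1, 9.71, 7.10 and 6.41 CPM. PLA2G2A, RELN and MEIS2 were highest in the NS group, and the likeness measure does not depend on the size of the change. Counts of SPP1 per count of ODAM stayed between 11.0 and 30.8 in all 15 libraries, with 11.0 to 21.1 in NS and 13.6 to 30.8 in double.

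Within groups, SPP1 and ODAM deviated together in the pooled libraries, and the values within each set were too few to decide. Deviations of log2 CPM from the group means had a Pearson r of 0.709 and a Spearman rho of 0.618 over 15 libraries, given as a description, since the libraries share the numbered sets. Without the 2 libraries farthest from the median of SPP1, double 3 and BRM 3, r was 0.521. With deviations taken from the group means of each set, r was -0.556 in 8 libraries of the lower-numbered set and 0.63 in 6 libraries of the higher-numbered set. Each group had 2 libraries in a set here, so their deviations mirror each other and hold fewer independent values than 8 and 6. In the lower-numbered set BRM 1 and BRM 2 went opposite ways for the 2 genes, and the other pairs went the same way. For BRM 1 and BRM 2 the deviations from the pooled group mean were -0.68 and -0.26 for SPP1, and -0.26 and -0.82 for ODAM. Ranked by deviations from the pooled group means (r = 0.709), ODAM stood 935 of 11903 genes for likeness to SPP1. SPP1 stood 500 for likeness to ODAM.

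**Figure D3:**
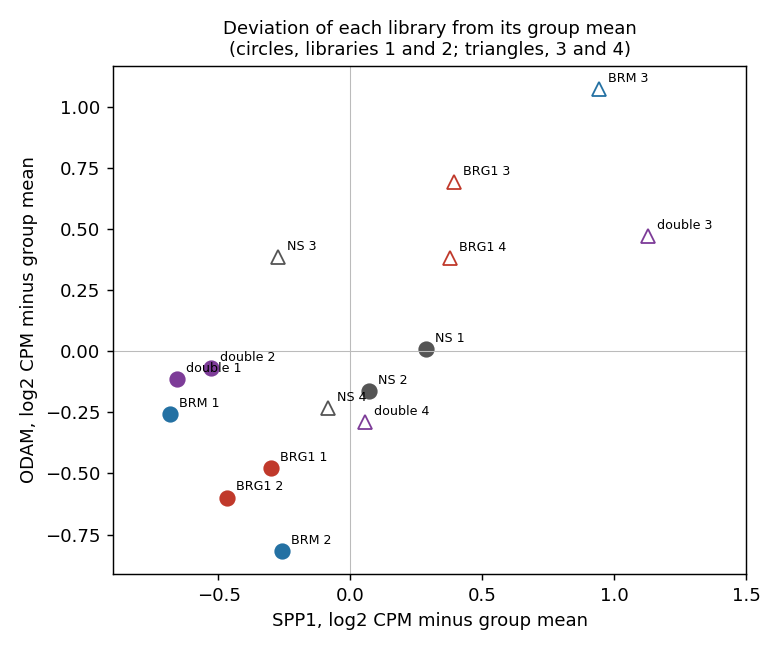
Deviation of each library from its group mean in log2 CPM, SPP1 on the horizontal and ODAM on the vertical axis, 15 libraries coloured by hairpin group. BRG1 3, BRG1 4, BRM 3 and double 3 are high for both genes, and the lower-numbered knockdown libraries are low for both.

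CD44 was nearly undetected in these cells. Its counts in NS libraries 1 to 4 were 8, 4, 2 and 3. The BRG1 libraries held 12, 12, 3 and 3, the BRM libraries 1, 7 and 1, and the double libraries 2, 0, 5 and 1. In double library 2, 0 of 13885573 counts allows a level of up to 0.216 CPM before TMM scaling (a floor of 3 counts, for counting error only). All 4 groups overlapped. The group totals were 17 (exact Poisson 95% interval 9.90 to 27.2), 30 (20.2 to 42.8), 9 (4.12 to 17.1) and 8 (3.45 to 15.8), in the order NS, BRG1, BRM, double. They come from 65052203, 85388198, 61819433 and 75833040 counts in all. The intervals of BRG1 and double did not overlap, but they hold counting error only, and single libraries of these groups overlapped. The highest values came from the lower-numbered set, 0.473 and 0.62 CPM in BRG1 libraries 1 and 2 against 0.131 and 0.147 CPM in BRG1 libraries 3 and 4.

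No change in CD44 against NS was detectable at this depth, and differences between knockdown groups are not given. The authors' deposited tables list log2 changes of 0.36 ± 0.84 (SE) for BRG1, -0.69 ± 0.98 for BRM and -1.49 ± 0.96 for double. Without the low-count filter the edgeR estimates were 0.36 ± 0.73, -0.67 ± 0.85 and -1.41 ± 0.82. Per kilobase of merged exons, the mean NS level was 283 CPM for SPP1, 24.2 for ODAM and 0.0258 for CD44. Transcript lengths in use are unknown, so these per-length levels are rough, more so for CD44, whose 39 annotated transcripts differ by variable exons.

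Integrin chains that serve as osteopontin receptors rose in the BRG1 group, where SPP1 was low. Of 9 chains, 5 were tested and all 5 rose with the BRG1 hairpin (edgeR adjusted p under 0.05), where 12.5% of all genes tested rose and 9.97% fell. Their median log2 change was 1.5, beside 0.019 for all genes. ITGA5, the alpha chain of the fibronectin receptor, averaged 3.98 CPM in NS and 75.8 CPM in BRG1, a log2 change of 4.25 ± 0.44 (SE, edgeR adjusted p = 1.96e-05; 3.67 and 4.91 in the lower- and higher-numbered sets). ITGB1, the shared beta chain, was far more abundant and went from 430 to 1220 CPM, by 1.51 ± 0.20 (adjusted p = 0.000126). ITGB5, a partner of the alpha V chain, rose by 0.98 ± 0.21 (adjusted p = 0.00327). ITGA5, ITGB1 and ITGB5 were higher in 4 of 4 BRG1 libraries than the NS mean.

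With the BRM hairpin, where SPP1 was also low, 1 of the 5 integrin genes rose and 1 fell. Here 7.66% of genes tested rose and 6.26% fell, 2035 in all, or 959 without BRM library 2. ITGB3 rose by 1.80 ± 0.46 (edgeR adjusted p = 0.0172, but 0.118 without BRM library 2). ITGA5 fell (-1.62 ± 0.49, adjusted p = 0.0396), a call lost without any 1 BRM library (0.0802 to 0.108) or without NS library 1 or 2. In the double group 2 of 5 rose (3 with the replicate block), beside 11.8% higher and 9.9% lower of all genes. The 2 were ITGA5, by 3.63 ± 0.43 (adjusted p = 4.91e-05), and ITGB1, by 1.45 ± 0.20 (adjusted p = 0.000164). ITGA4 had 0 counts in every library, and ITGB6, ITGA8 and ITGA9 at most 10.

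**Figure D4:**
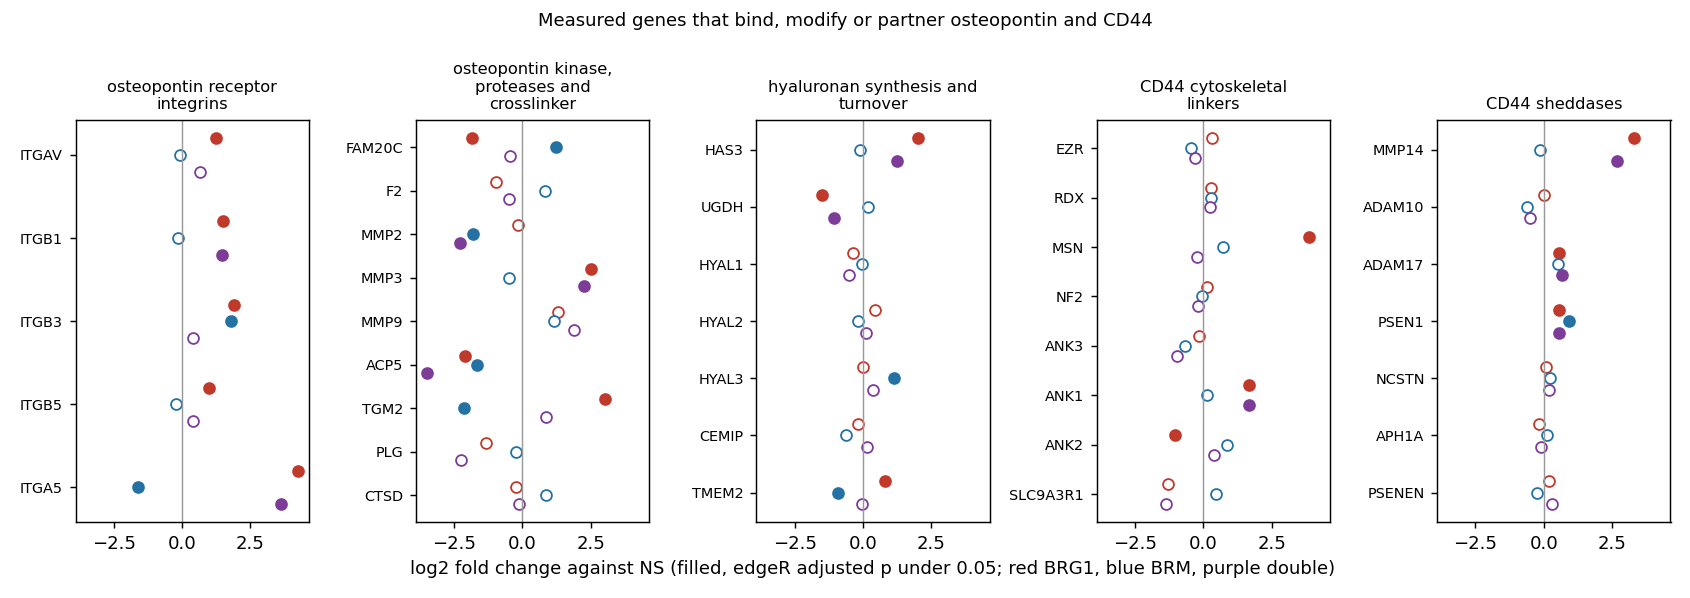
Log2 fold change against NS (horizontal axes) of the tested genes of 5 lists (rows), in BRG1 (red), BRM (blue) and double (purple); filled points passed an edgeR adjusted p under 0.05. All 5 integrin points for BRG1 lie to the right of 0, with ITGA5 farthest at 4.25.

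Enzymes that modify osteopontin moved singly and in both directions. Of 12 listed genes 9 were tested, with 2 higher and 2 lower in BRG1, 1 higher and 3 lower in BRM, and 1 higher and 2 lower in double. Over all genes tested, 12.5% were higher and 9.97% lower in BRG1, 7.66 and 6.26% in BRM, and 11.8 and 9.9% in double. FAM20C, the secretory kinase that phosphorylates osteopontin, averaged 26.3 CPM in NS, 7.34 in BRG1, 60.8 in BRM and 19.4 in double. It fell with the BRG1 hairpin (log2 change -1.84 ± 0.21, edgeR adjusted p = 3.83e-05) and rose by 1.21 ± 0.22 with the BRM hairpin (adjusted p = 0.00208). TGM2, the transglutaminase that crosslinks osteopontin, did the opposite, from 105 CPM in NS to 856 in BRG1 (log2 change 3.03 ± 0.35, adjusted p = 4.23e-05) and 23.9 in BRM (-2.13 ± 0.38, adjusted p = 0.00203). Both were on the same side of the NS mean in 4 of 4 BRG1 libraries and, the other way, in 3 of 3 BRM libraries. The difference between the single knockdowns was not tested.

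ACP5, the tartrate-resistant phosphatase that can remove osteopontin's phosphates, fell in the double group from 2.44 to 0.214 CPM (-3.51 ± 0.46, edgeR adjusted p = 0.000107), and also in BRG1 (-2.09 ± 0.41, adjusted p = 0.00217) and BRM (-1.65 ± 0.45, adjusted p = 0.0245). MMP3, a protease that cleaves osteopontin, rose from 1.68 to 9.82 CPM in BRG1 (2.51 ± 0.32, adjusted p = 8.95e-05) and to 8.21 CPM in double (2.25 ± 0.32, adjusted p = 0.000198). F2, which encodes thrombin, another protease of osteopontin, averaged 297 CPM in NS, and its log2 differences of -0.96 ± 0.40, 0.83 ± 0.42 and -0.48 ± 0.39 did not pass (adjusted p = 0.102, 0.227 and 0.438). MMP2, a gelatinase, fell in double (-2.29 ± 0.39, adjusted p = 0.000756) and BRM (-1.82 ± 0.42, adjusted p = 0.0106). Its changes were smaller in libraries 3 and 4 than in libraries 1 and 2. They were -1.17 against -3.31 in double, and -0.63 against -2.59 in BRM, which has 1 library in the higher-numbered set. Under the block on replicate number, 2 genes of this list rose and 3 fell in BRG1. In BRM 3 rose and 3 fell with the block, and in double 2 rose and 4 fell.

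Most relatives of SPP1 and ODAM in the secretory calcium-binding phosphoprotein family were silent. Besides SPP1 and ODAM, 20 family and SPARC-related genes were in the count table and 3 were tested, SPARC, HTN1 and HTN3. SPARC, a matrix glycoprotein and the only one of the 3 above 2 CPM, averaged 188 CPM in NS and fell in the double group (-1.05 ± 0.27, edgeR adjusted p = 0.0124). HTN1 and HTN3, salivary histatins that are near-identical in sequence and so share reads, averaged 1.17 and 0.48 CPM in NS, and no difference passed. With the replicate block 1 of the 3 tested genes fell in BRM, where none had passed without it. The other mineralized tissue genes beside SPP1, which are DSPP, DMP1, IBSP and MEPE, had at most 2 counts in any library.

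The tested genes around SPP1 and ODAM had changes between -2.83 and 1.32 in the 3 comparisons with NS. These are smaller than those of SPP1 and ODAM, but both were chosen for their response, so nothing is read from that difference. Of 13 genes in the table whose start lies within 500 kb of that of SPP1, 5 were tested. PPM1K, a mitochondrial phosphatase of branched-chain amino acid breakdown 309 kb away, fell in BRG1 (-0.92 ± 0.18, edgeR adjusted p = 0.00217) and in double (-1.31 ± 0.18, adjusted p = 0.000189). In BRM it fell too (-0.79 ± 0.20, adjusted p = 0.0171, and 0.0652 without BRM library 2). PKD2, the polycystin 2 gene and the nearest tested neighbour at 32.0 kb, differed by -0.61 ± 0.25, -0.42 ± 0.28 and -0.87 ± 0.25. The last passed (adjusted p = 0.0247, 0.0574 without NS library 1, 0.0515 without NS library 2 and 0.0523 without double library 2), and the first did with the replicate block (adjusted p = 0.0277). HERC6 fell in double (-1.39 ± 0.28, adjusted p = 0.00277). HERC5 rose there by 1.32 ± 0.39 (adjusted p = 0.0269), a call lost without NS library 3 or 4 or double library 1, 3 or 4 (0.0564 to 0.077). ABCG2, a drug efflux pump, passed in none of the 3 comparisons.

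Around ODAM 5 of 23 genes were tested, and 1 passed. Shares over all genes tested were 12.5% higher and 9.97% lower in BRG1, 7.66 and 6.26% in BRM, and 11.8 and 9.9% in double. Nothing is read from the count of 1 neighbour. SULT1E1, the estrogen sulfotransferase, at -336.3 kb, fell in the double group from 1.18 to 0.171 CPM (-2.83 ± 0.60, edgeR adjusted p = 0.00384). The nearest tested neighbours were HTN1 at -146.1 kb and UTP3 at 492 kb. UTP3 differed by 0.39 ± 0.19 in BRG1, -0.11 ± 0.21 in BRM and 0.50 ± 0.19 in double, which passed for BRG1 and double with the replicate block (adjusted p = 0.0376 and 0.00955). Closer to ODAM in the table, PRR27 at -62.9 kb had at most 12 counts in any library, and FDCSP and CSN3 at 29.6 and 46.1 kb at most 1.

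**Figure D5:**
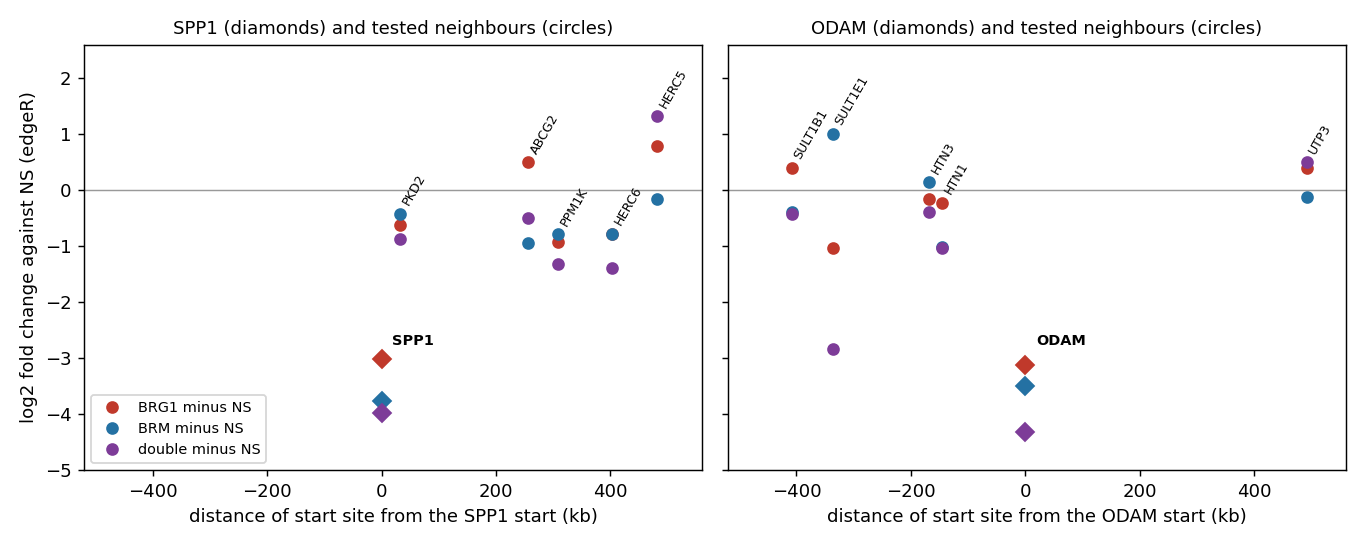
Log2 fold change against NS (vertical axis) of SPP1, ODAM (diamonds) and their tested neighbours (circles) against the distance between start sites in kb (horizontal axis), in BRG1, BRM and double. SPP1 and ODAM, chosen for their response, lie between -4.31 and -3.02, and the neighbours between -2.83 and 1.32.

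CD44 itself was flanked by genes that were expressed. Of 8 genes within 500 kb, 4 were tested. SLC1A2, a glutamate transporter 281 kb away, fell from 26.2 to 5.64 CPM in BRG1 (-2.21 ± 0.36, edgeR adjusted p = 0.000572) and rose to 156 CPM in BRM (2.57 ± 0.37, adjusted p = 0.00053), and in double it passed with the replicate block (-0.86 ± 0.25, adjusted p = 0.0179). PDHX, a subunit of pyruvate dehydrogenase, stayed near 55 to 60 CPM (54.8 to 59.6) and passed in no comparison. APIP fell in BRG1 (-0.90 ± 0.23, adjusted p = 0.0114). FJX1 rose in BRG1 by 1.94 ± 0.36 (adjusted p = 0.00147). Its rise of 1.10 ± 0.36 in double (adjusted p = 0.0392) was lost without any 1 library of the groups compared (0.0504 to 0.165).

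Genes that act with CD44 were measured although CD44 was not. Across all lists of partners, enzymes and regulators of osteopontin and CD44, 100 of 142 genes were tested. In BRG1 30% rose and 9% fell, in BRM 6% rose and 11% fell, and in double 19% rose and 10% fell, with medians of 0.14, -0.053 and -0.064. Over all genes tested the shares were 12.5% higher and 9.97% lower in BRG1, 7.66 and 6.26% in BRM, and 11.8 and 9.9% in double, so the shares that fell in BRG1 and double were near those of all genes. The lists were chosen with results of these libraries known, so their counts are a description.

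HAS3, a hyaluronan synthase and the only one of the 3 tested, rose from 0.812 to 3.32 CPM in BRG1 (2.02 ± 0.23, edgeR adjusted p = 4.22e-05) and to 1.97 CPM in double (1.26 ± 0.23, adjusted p = 0.00145). UGDH, which makes the UDP-glucuronate that hyaluronan is built from, fell from 412 to 148 CPM in BRG1 (-1.48 ± 0.22, adjusted p = 0.000329) and to 196 CPM in double (-1.07 ± 0.22, adjusted p = 0.00301). In that list of 7 tested genes 2 rose and 1 fell in BRG1 (3 and 2 with the replicate block). In BRM and in double 1 rose and 1 fell (1 and 2 in double with the block). LYVE1, a hyaluronan receptor related to CD44 and typical of lymphatic endothelium, rose from 4.43 to 31.6 CPM in BRG1 (2.84 ± 0.29, adjusted p = 1.96e-05) and to 17.8 CPM in double (2.01 ± 0.29, adjusted p = 0.000206). In BRM it fell (-1.30 ± 0.33, adjusted p = 0.0174, and 0.0567 without BRM library 1). HMMR, another hyaluronan-binding protein, fell in BRG1 (-1.03 ± 0.32, adjusted p = 0.0299), and was lost without any 1 of NS libraries 1, 3 and 4 or BRG1 libraries 1, 2 and 3 (0.0507 to 0.0783). Of the 8 tested genes in that list, 1 rose and 1 fell in BRG1 and in BRM, and 2 rose in double. With the block 1 rose and 2 fell in BRG1, and the counts in BRM and double were the same.

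MSN, the moesin that links the CD44 tail to actin, rose from 0.659 to 9.56 CPM in BRG1 (3.85 ± 0.44, edgeR adjusted p = 4.06e-05) but stood at 0.55 CPM in double (-0.22 ± 0.45, adjusted p = 0.792). Its more abundant relatives EZR (225 CPM in NS) and RDX (105 CPM) passed in no comparison. Of 8 linker genes 2 rose and 1 fell in BRG1, none passed in BRM, and 1 rose in double. With the replicate block 2 rose and 2 fell in BRG1, 1 rose in BRM, and 1 rose and 1 fell in double. MMP14, a membrane protease that sheds CD44, rose from 19.7 to 196 CPM in BRG1 (3.31 ± 0.25, adjusted p = 1.57e-06) and to 126 CPM in double (2.68 ± 0.24, adjusted p = 6.25e-06). MMP14 was 1 of 8 sheddase genes, of which 3 rose in BRG1, 1 in BRM and 3 in double, and none fell without the block. With it 3 rose in BRG1, 2 rose and 1 fell in BRM, and 3 rose and 1 fell in double. Among all genes tested without the block, 12.5% rose and 9.97% fell in BRG1, 7.66 and 6.26% in BRM, and 11.8 and 9.9% in double.

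EGFR, a co-receptor reported to act with CD44, rose from 40.0 to 218 CPM in BRG1 (2.45 ± 0.28, edgeR adjusted p = 4.22e-05) and to 135 CPM in BRM (1.75 ± 0.29, adjusted p = 0.00129). In double it stood at 72.9 CPM (0.87 ± 0.27, adjusted p = 0.0329), a call lost without any 1 of NS libraries 2, 3 and 4 or double libraries 1, 3 and 4 (0.053 to 0.126). Of 10 co-receptor genes 1 rose and 1 fell in BRG1 (4 fell with the replicate block). In BRM 1 rose and 1 fell (4 rose and 1 fell with the block), and in double 1 rose and 2 fell (4 fell with the block). The shares of all genes tested without the block were 12.5% higher and 9.97% lower in BRG1, 7.66 and 6.26% in BRM, and 11.8 and 9.9% in double. ESRP2, an epithelial splicing factor of CD44 variable exons, fell in BRG1 (-0.88 ± 0.24, adjusted p = 0.0177, and 0.0594 without NS library 3). It was 1 of 2 splicing regulators of 8 that fell there (4 with the block), and none passed in BRM or double (1 rose in each with the block).

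Among transcription factors reported to act on SPP1, more rose than fell in BRG1, and both directions were seen in double. Of 25 tested, 9 rose and 1 fell in BRG1, 2 fell in BRM, and 5 rose and 4 fell in double. Over all genes tested, 12.5% rose and 9.97% fell in BRG1, 7.66 and 6.26% in BRM, and 11.8 and 9.9% in double. With the replicate block 13 rose and 2 fell in BRG1, 4 rose and 3 fell in BRM, and 9 rose and 4 fell in double. The block passed 5318 of 14621 genes in BRG1, 4153 in BRM and 5200 in double. ETS1, an activator of the SPP1 promoter by report, rose from 3.25 to 50.9 CPM in BRG1 (3.95 ± 0.33, edgeR adjusted p = 4.66e-06) and to 22.0 CPM in double (2.75 ± 0.32, adjusted p = 4.02e-05) and stood at 2.62 CPM in BRM. SOX9, a biliary factor, averaged 194 CPM in NS, 208 in BRG1, 105 in BRM and 123 in double. It fell in BRM (-0.88 ± 0.23, adjusted p = 0.0216) and in double (-0.66 ± 0.21, adjusted p = 0.0388), but the BRM call was lost without NS library 3 or 4 or BRM library 1 or 2 (0.0595 to 0.085), and the double call without NS library 3 or 4 or double library 1, 2 or 3 (0.0527 to 0.13). RUNX2 was at most 0.349 CPM in any group mean. PPARA, a nuclear receptor of fatty acid oxidation, fell in BRG1 (-0.91 ± 0.19, adjusted p = 0.00324) and in double (-1.37 ± 0.19, adjusted p = 0.000178). Of 15 tested factors reported for CD44, 8 rose in BRG1, 3 fell in BRM and 4 rose in double. Under the replicate block 10 of these factors rose and 2 fell in BRG1, 2 rose and 5 fell in BRM, and 9 rose and 1 fell in double. Among the CD44 factors the AP-1 subunit FOSL1 averaged 24.9 CPM in NS, 153 in BRG1, 10.3 in BRM and 52.7 in double.

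Hepatocyte markers that passed in BRG1 and double all fell, while those of other liver cell types moved in both directions. All 12 hepatocyte markers passed the filter on low counts. Of them 8 fell in BRG1, 1 rose and 1 fell in BRM, and 4 fell in double (edgeR). Of all genes tested, 9.97% fell in BRG1 and 9.9% in double, and in BRM 7.66% rose and 6.26% fell. With the replicate block 11 fell in BRG1, 7 rose and 1 fell in BRM, and 5 fell in double. That block passed 5318, 4153 and 5200 of 14621 genes in the same order. TTR, the carrier of thyroid hormone and retinol-binding protein, fell in all 3 comparisons, from 116 CPM in NS to 43.4 in BRG1 (-1.41 ± 0.20, adjusted p = 0.000212), 39.3 in BRM (-1.55 ± 0.22, adjusted p = 0.000534) and 14.6 in double (-2.99 ± 0.21, adjusted p = 1.15e-06). FGB, the fibrinogen beta chain, fell in BRG1 (-2.28 ± 0.60, adjusted p = 0.013) and rose in BRM (2.87 ± 0.63, adjusted p = 0.0081). The summed level of the 12 markers was 23200 to 35600 CPM in NS, 5400 to 19300 in BRG1, 44000 to 52500 in BRM and 11200 to 26300 in double. Of 9 cholangiocyte markers 5 were tested, and their sum of 1030 to 1510 CPM in NS was 2890 to 5030 in BRG1, 522 to 1040 in BRM and 1310 to 2780 in double. KRT19, a biliary keratin that HepG2 cells also express, made up most of it and rose in BRG1 by 1.96 ± 0.38 (adjusted p = 0.00213).

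Of 10 macrophage and leukocyte markers 4 were tested. TYROBP had 0 counts in every library, and CSF1R, MARCO, CD163, AIF1 and ITGAM stayed at or under 13 counts. The pan-leukocyte gene PTPRC had at most 17 counts. LYZ, the lysozyme gene, made up most of that list's sum (483 to 1700 CPM in NS, 688 to 1410 in BRG1, 138 to 249 in BRM, 329 to 446 in double). LYZ fell in BRM (-3.18 ± 0.52, edgeR adjusted p = 0.00112) and in double (-1.71 ± 0.43, adjusted p = 0.0111, but -0.35 and 0.106 within libraries 1 and 2). CD68, a lysosomal marker of macrophages, went the other way, from 35.0 CPM in NS to 65.9 in BRM (0.91 ± 0.26, adjusted p = 0.0302) and 65.5 in double (0.90 ± 0.24, adjusted p = 0.0159). The BRM call of CD68 was lost without NS library 1, 2 or 3 or BRM library 2 or 3 (0.0542 to 0.165), and the double call without NS library 2 or 3 or double library 4 (0.0525 to 0.0734). Of 8 stromal markers 3 were tested, summing to 61.6 to 118 CPM in NS, 121 to 295 in BRG1, 124 to 214 in BRM and 90.2 to 139 in double, while LUM had at most 1 count. ACTA2, smooth muscle actin, rose in BRM (1.66 ± 0.24, edgeR adjusted p = 0.000571) and in double (0.95 ± 0.23, adjusted p = 0.00774, and 0.0597 within libraries 1 and 2). COL1A1 and PDGFRB passed in no comparison. In bulk RNA, fewer cells making a transcript and less transcript per cell cannot be told apart, and the part these markers have in the levels of SPP1 and ODAM was not tested.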

How the data were processed

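Each gene symbol has an estimated count per library in the authors' deposited table, whole and without scaling between libraries. The submitters' processing notes name kallisto, DESeq2 and GRCh38. For versions, annotation and strand setting, nothing is given in the sources used here. The authors' deposited tables hold log2 fold changes with standard errors, per the file headers, which do not name the reference group.

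The counts went unchanged into edgeR 4.0.16, run under R 4.3.3 (filterByExpr, TMM, robust quasi-likelihood F test, group means of 15 libraries in 1 fit, 2-sided, Benjamini-Hochberg adjustment over 14621 genes, threshold 0.05), and the code was tested on simulated data. The SE is the log2 change divided by the square root of F. With the BRG1 hairpin 3284 genes passed and in the double group 3165, or 5318 and 5200 with the replicate number as a block. Log2 CPM used a prior count of 2. Alternatives were DESeq2 1.42.0, RLE factors, no filter, only the groups compared, the block, a term for the numbered sets, values within sets, and leaving out each library.

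Same-numbered libraries deviated together in NS and BRG1 (correlations 0.427 to 0.565) and NS and double (0.179 to 0.454). Libraries of different number within a set were not compared, so pairing by number was not tested apart from the sets. The main fit uses no pairing, and the replicate block is given as an alternative. For NS and BRM the correlations were 0.0733 to 0.527. No 2 libraries of a group agreed within sampling noise (chi-square per degree of freedom at least 5.21).

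Members and lists were chosen with earlier results of these data known. Named genes are the members, SMARCA4 and SMARCA2, up to 3 called genes per list and comparison by adjusted p, the 5 genes most like each of SPP1 and ODAM, the called neighbours and the nearest tested neighbour on each side. Likeness was not computed for CD44. Others named, chosen after their values were seen, are F2, EZR, RDX, RUNX2, ABCG2, ITGA4, ITGB6, ITGA8, ITGA9, COL1A1, PDGFRB, PRR27 and silent family and marker genes. The listed SCPPPQ1 was not matched, and 33662 of 35012 symbols matched GENCODE v29.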

Additional observations from a re-analysis of the deposited data

Results flagged for a closer look

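Among 71 genes in groups of 4 libraries (213 groups), 14 held a library far from its group's other 3, where chance gives about 1 in 20. None was SPP1, ODAM or CD44. Double library 3 was that library for ERBB3 (96.7 CPM against 191 to 202), ALB (1380 against 2440 to 2570), LYVE1 (30.4 against 12.3 to 15), CTSC (59.8 against 54.8 to 55.6), TTYH1 (1.02 against 0.607 to 0.656) and FJX1 (14.4 against 7.55 to 8.47). It was also the double library with the most SPP1 and ODAM. NS library 2 was that library for SMARCA4 (297 CPM), SMARCA2 (33.2), PPM1K (17.7) and MITF (0.721). The others were ANK1 in BRG1 library 2 (3.67 CPM), MMP14 in NS library 1 (22.4), SMARCA4 in BRG1 library 4 (24.4) and SPN in double library 4 (1.03).

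For 4 of the named list genes and neighbours the effect of one hairpin differed with the other, by the interaction term in edgeR on the log2 scale. Of all genes tested, 0.103% passed with a positive and 0.397% with a negative term. Most of the genes looked at had been named for their calls against NS in these libraries, so this count is a description. The term was -3.33 ± 0.40 for EGFR (adjusted p = 0.00175), -4.78 ± 0.63 for MSN (adjusted p = 0.00229), -3.30 ± 0.62 for ITGB3 (adjusted p = 0.0296) and 2.39 ± 0.41 for EGR1 (adjusted p = 0.0158).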

How the results depend on the processing

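SPP1 and ODAM were lower than NS under every alternative run. Within libraries 1 and 2 their log2 changes were -3.62 and -3.68 in BRG1, -4.56 and -4.22 in BRM, and -4.93 for SPP1 in double. ODAM there was -0.68 for double against BRG1, -0.137 for double against BRM and 3.54 for the interaction. Within libraries 3 and 4 SPP1 was -2.49 in BRG1, -2.80 in BRM, -3.28 in double and 2.01 for the interaction, and ODAM -2.73 in BRM, -1.52 for double against BRM and 1.23 for the interaction. Leaving out 1 library gave -4.42 to -3.47 for SPP1 in BRM, 2.34 to 3.47 for its interaction, -4.34 to -3.20 for ODAM in BRM, -1.14 to -0.0034 for double against BRM and 2.01 to 3.15 for its interaction. CD44 has no filtered value to compare.

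Counts of called genes depended on how the numbered sets were treated; the cause was not tested. For the BRG1, BRM and double comparisons with NS, then double against BRG1, double against BRM and the interaction, they were 5318, 4153, 5200, 3259, 5302 and 633 with the replicate block and 5720, 4684, 5646, 3728, 5718 and 1061 with a set term. Within libraries 1 and 2 they were 5921 in BRG1, 4336 in BRM, 4249 for double against BRG1, 4751 for double against BRM and 1938 for the interaction. Within libraries 3 and 4 they were 3349 in BRM, 5286 in double and 530 for the interaction. DESeq2 gave 449 for the interaction (73 with edgeR), and only the groups compared gave 1002 in BRM (fewer samples). Leaving out 1 library gave 959 to 2063 in BRM, 934 to 1397 for double against BRG1 (1582 with all) and 38 to 166 for the interaction.

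List members called in BRM (22) were 46 with the block, 49 with the set term, 52 within libraries 1 and 2 and 40 within 3 and 4. In double (37) they were 56 with the block, 58 with the set term and 65 within libraries 3 and 4, and in BRG1 (48) 73 within libraries 1 and 2. Neighbours called in BRG1 (4) were 8 with the set term and 7 within libraries 1 and 2. In BRM (2) they were 1 with only the groups compared and 1 to 3 without 1 library. With the block SMARCA2 passed in BRG1 (-0.60, adjusted p = 0.0261). Beside the gains given in the report, no gene changed its call in a comparison for which the rule named it. Calls of list members in other comparisons did change, as the list counts with the block show.

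Of 118 calls of named genes, 118 had the same sign within both sets, 79 passed under every alternative and 39 were lost under at least 1. Signs turned only for genes that did not pass: SMARCA4 in BRM (-0.0361 within libraries 1 and 2, -0.0868 to 0.304 without 1 library), APIP in double (0.037 within libraries 1 and 2) and in BRM (-0.0267 within libraries 3 and 4), HTN1 in BRG1 (0.18 within libraries 3 and 4, -0.56 to 0.061 without 1 library), HERC5 in BRM (0.66 within libraries 3 and 4, 0.0698 without NS library 1, -0.519 to 0.229 without 1 library) and FJX1 in BRM (-0.0677 to 0.646 without 1 library). Depth limits CD44 to 0 to 12 counts a library and ODAM to 26 to 152 in knockdown libraries.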
